A study of Homo sapiens with 12 samples.

Results

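Polysomal RNA of HEK293 cells that overexpressed RBMX was compared with polysomal RNA of cells that carried the mock empty vector. The comparison takes 6 of the 12 libraries of the study, 3 for each vector, chosen by their labels. It was read across 18909 protein-coding symbols of the 25268 symbols listed. Small RNA symbols (microRNA, snoRNA, scaRNA and RNU genes) were set aside. HEK293 is an established human embryonic kidney line. The RBMX group received the plasmid pCMV6-HIS-HA-RBMX (2 μg), which encodes a His- and HA-tagged RBMX, and the controls a mock empty vector. Both were delivered with Lipofectamine and cells were taken after 48 h. The labels call the vector controls wild type. Lysates made in the presence of cycloheximide were run on sucrose gradients and RNA was taken from the polysomal fractions, with 3 biological replicates per vector. Transfection was transient, so a culture can hold cells with and without plasmid. The 6 total RNA libraries were pooled from all fractions of the same gradients and serve here only for values side by side.

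RBMX (hnRNP G) is a nuclear RNA-binding protein with an RNA recognition motif, known for its part in alternative splicing and in sister chromatid cohesion. Messenger RNAs bound by several ribosomes sediment with the polysomes, so a polysomal level reflects both how much of an mRNA a cell holds and how well it is loaded with ribosomes. The question was whether RBMX controls homeotic mRNAs at this level. Type I and type III interferons are cytokines made after sensors such as RIG-I and MDA5 meet foreign or unusual RNA, and they induce antiviral genes through cell surface receptors.

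Levels were FPKM values, in which the fragments of a gene are divided by its transcript length and by the size of the library. The depth of a library cannot be read from them. Small RNA symbols took between 40.5% and 64.7% of the summed FPKM. All 10 HEK293 markers passed the minimum level, with VIM between 217.3 and 576.8 FPKM and NEFL between 33.0 and 52.5. Of 17 markers of other cell types 12 were below the minimum, and the leukocyte marker PTPRC did not exceed 0.0209 FPKM. The other 5 passed it. COL1A1 was between 3.98 and 8.61 FPKM and the leukocyte marker CD14 between 1.24 and 1.65. LUM, PMEL and ACTA1 did not exceed 1.23 FPKM. The HEK293 marker PAX2 was between 3.20 and 8.80 FPKM. Libraries of a group were not equally alike: across protein-coding genes the Spearman correlation of control replicates 1 and 2 was 0.999, while control replicate 3 reached 0.975 and 0.976 with them. The interquartile range of a library's deviation from the median library, on the log2(FPKM + 1) scale, was 0.395 in control replicate 3, 0.272 in RBMX replicate 2 and between 0.0911 and 0.134 in the other libraries.

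RBMX itself was checked in every library. Its polysomal level was 145.9, 147.8 and 87.4 FPKM in control replicates 1 to 3 and 1167, 1328 and 1072 FPKM in RBMX replicates 1 to 3, a ratio of means of 9.36. All RBMX libraries lay far above all controls, as their labels say. On the log2(FPKM + 1) scale RBMX rose by 3.25 ± 0.227 (SE, n = 3 per group; limma, Benjamini-Hochberg adjusted p = 0.0114). In the 6 total RNA libraries the difference was 3.71. RBMXL1, a retrocopy of RBMX with a nearly identical coding sequence, stood at 17, 16.9 and 7.81 FPKM in controls and at 339.8, 383.0 and 337.8 FPKM with RBMX. It rose by 4.64 ± 0.275 (limma, adjusted p = 0.00709), but reads of the plasmid and of this copy cannot be told apart in gene-level values. A two-sided exact permutation test of the 3 against 3 values gave p = 0.1 for either gene, the smallest this design allows.

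**Figure D1:**
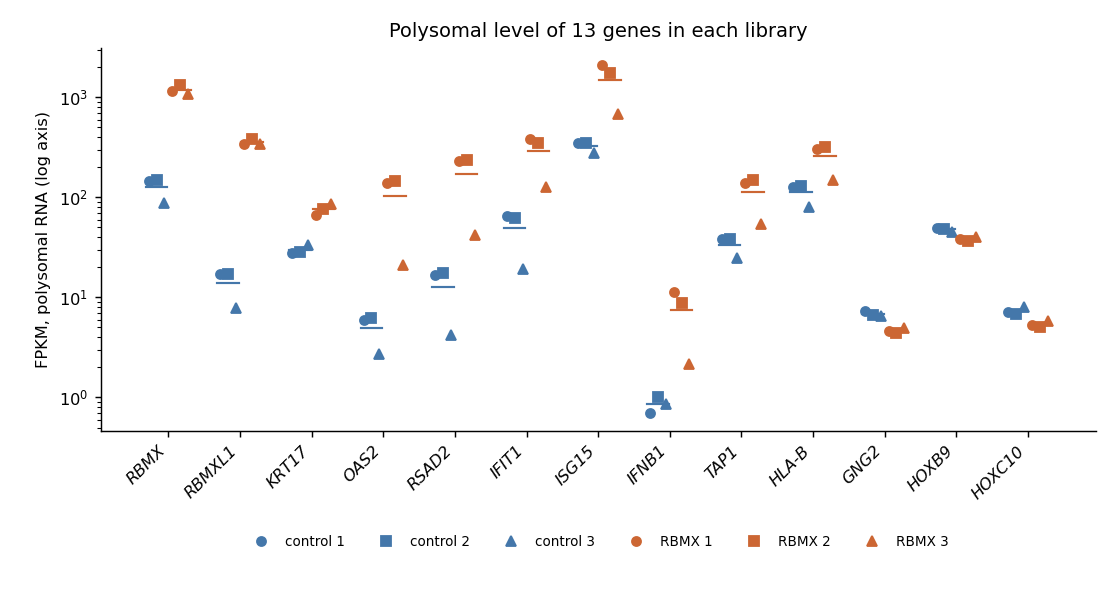
FPKM on a log axis of 13 genes in polysomal RNA, with 1 point per library (blue control, orange RBMX, marker shape the replicate number) and a bar at the mean of each group. In RBMX the 3 orange points lie between 1072 and 1328 FPKM; in OAS2, RSAD2, IFIT1, ISG15, IFNB1, TAP1 and HLA-B the triangle of RBMX replicate 3 lies between the controls and the other RBMX libraries, while in KRT17 it is the highest.

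Of the 18909 protein-coding symbols, 12926 had a mean of at least 0.5 FPKM over the 6 libraries and were tested. Only RBMX and RBMXL1 passed an adjusted p of 0.05 in limma, both higher, which is 0.0155% of the genes tested, and 0 genes were called lower. An unadjusted p under 0.05 was found for 1434 genes, 702 higher and 732 lower. By the plain order of the values, all 3 RBMX libraries were above all 3 controls for 1416 genes (11%) and below them for 1514 genes (11.7%). The larger differences were almost all in one direction: 105 genes whose groups did not overlap were at least 2-fold higher with RBMX on the log2(FPKM + 1) scale and 1 gene, SCHIP1, was 2-fold lower. At 4-fold or more there were 34 higher genes and 0 lower ones. In bulk RNA a difference in the number of cells that express a gene and a difference in RNA per cell cannot be told apart.

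Interferon-stimulated genes made up 59 of these 105 genes. Of 64 listed interferon-stimulated genes 62 were tested, and RTP4 and GBP2 were below the minimum level. In all 62 the 3 RBMX libraries lay above the 3 controls (100%, against 11% of all protein-coding genes), with a median log2 difference of 1.75 against 0.0059 over all genes. The differences ran from 0.75 in EIF2AK2 to 3.76 in OAS2. None of the 62 passed the adjusted threshold, and RBMX replicate 3 stood well below the other RBMX libraries. The median of the 62 genes relative to their control means was 0.22, 0.19 and -0.37 in control replicates 1 to 3 and 2.13, 2.18 and 0.88 in RBMX replicates 1 to 3. Their summed FPKM was 2286, 2321 and 1522 in controls and 12430, 11534 and 4281 with RBMX.

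**Figure D2:**
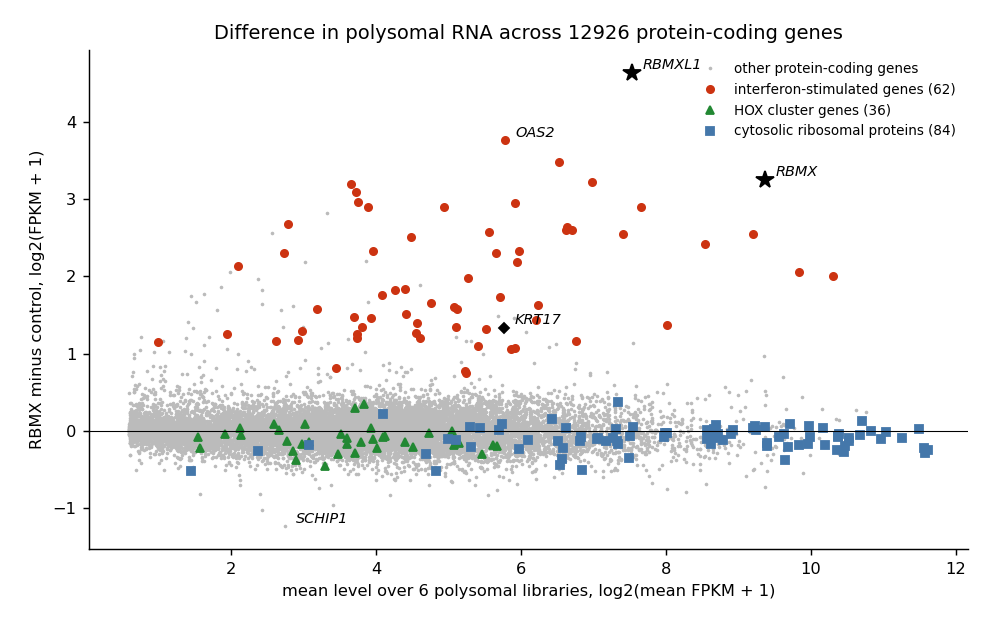
Difference between RBMX and control (y axis, log2(FPKM + 1) scale) against the mean level over the 6 polysomal libraries (x axis, log2 scale), with 1 point per protein-coding gene tested. Interferon-stimulated genes (red) run from 0.75 to 3.76 at all levels of expression, HOX genes (green) from -0.46 to 0.34 and cytosolic ribosomal protein genes (blue) from -0.52 to 0.37; stars mark RBMX and RBMXL1.

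Among the antiviral effectors, OAS2, an enzyme that makes 2-5 oligoadenylates and so activates RNase L, was at 6.0, 6.20 and 2.69 FPKM in controls and at 139.7, 147.2 and 21.3 FPKM with RBMX. Its log2 difference was 3.76 ± 0.717 (SE, n = 3 per group; limma, adjusted p = 0.320). RSAD2 (viperin), which makes a chain-terminating nucleotide, was at 16.8, 17.4 and 4.18 against 231.1, 234.9 and 42.0 FPKM. The lowest RBMX library was RBMX replicate 3 for both genes, and it was still above every control. IFIT1, which binds RNA that lacks 2-O methylation of the cap, was at 65.8, 62.7 and 19.3 against 384.8, 351.0 and 128.1 FPKM. The log2 difference was 2.90 ± 0.605 for IFIT3, 3.22 ± 0.687 for IFIT2 and 3.09 ± 0.671 for MX2, a dynamin-like GTPase. MX1 had a smaller difference of 1.29 ± 0.294. The membrane proteins BST2 (tetherin) and IFITM1 differed by 2.64 ± 0.526 and 2.55 ± 0.494. Limma's adjusted p was between 0.320 and 0.333 for the 9 effectors named here.

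The cytosolic RNA sensors showed the same order of libraries. DDX58, which encodes RIG-I, was at 17, 16.3 and 8.81 FPKM in controls and at 76.2, 75.9 and 30.4 FPKM with RBMX, a log2 difference of 1.98 ± 0.394. IFIH1, which encodes MDA5, differed by 1.76 ± 0.389, and DHX58 (LGP2), which regulates both sensors, by 2.31 ± 0.536. Of the signalling factors, STAT2 had groups that barely separated: control replicate 3 was at 22.1 and RBMX replicate 3 at 22.2 FPKM, beside 14.8 and 15.1 in the other controls and 61.4 and 64.5 in the other RBMX libraries. IRF7, a transcription factor of interferon genes, differed by 1.43 ± 0.316 and IRF9, the DNA-binding part of the ISGF3 complex, by 0.78 ± 0.186. ISG15, a ubiquitin-like modifier, reached 2093, 1741 and 682.7 FPKM from 352.1, 347.1 and 276.6 FPKM in controls. USP18, which removes ISG15 and damps the receptor, differed by 1.73 ± 0.320. None of these 8 passed the adjusted threshold in limma (adjusted p between 0.320 and 0.363).

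Interferon genes themselves were low in controls and were among the 2-fold genes outside the list; they were chosen after their values were seen. IFNB1 (interferon beta) was at 0.696, 1.02 and 0.860 FPKM in controls and at 11.3, 8.80 and 2.14 FPKM with RBMX. The type III interferon IFNL1 was at 1.03, 1.36 and 0.741 against 25.3, 21.4 and 3.95 FPKM. IFNL3 and IFNL2 had log2 differences of 1.86 ± 0.419 and 1.67 ± 0.388. As in the interferon-stimulated list, RBMX replicate 3 was the lowest RBMX library for all 4 interferon genes and lay above every control. The chemokine genes CCL5 and CXCL10 differed by 2.19 ± 0.410 and 1.41 ± 0.390. CSF3, which encodes the growth factor G-CSF, was at 6.27 and 5.78 FPKM in RBMX replicates 1 and 2 but at 0.0639 FPKM in replicate 3, within the control range of 0.0475 to 0.175.

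Genes of MHC class I antigen presentation followed at a smaller size. Of 19 tested members the groups did not overlap in 14, all higher (73.7%, against 11% of all protein-coding genes), and the median log2 difference was 0.97. The peptide transporter subunits TAP1 and TAP2 differed by 1.63 ± 0.390 and 1.58 ± 0.366, and NLRC5, a transactivator of class I genes, by 1.62 ± 0.356 (limma, adjusted p = 0.333 for each). HLA-B was at 127.6, 131.0 and 79.3 FPKM in controls and at 306.7, 315.7 and 149.9 FPKM with RBMX. The immunoproteasome subunit PSMB9 had the largest difference of the list, 2.33 ± 0.594, and PSME2, a subunit of the PA28 activator, the smallest, 0.28 ± 0.152. PSMB8, PSMB9 and TAP1 also stand in the interferon-stimulated list.

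RBMX replicate 3 stood apart in this group of genes. It was the lowest RBMX library in 62 of the 62 interferon-stimulated genes and in 104 of the 105 genes at least 2-fold higher, compared with 28.5% of all protein-coding genes. In 42 of the 62 it was at least 1 log2 unit below both other RBMX libraries, which was the case for 78 of all 12926 genes. Control replicate 3 was also the lowest control in 55 of the 62 genes, and in 50.0% of all genes. Without RBMX replicate 3 limma called 132 genes higher (1.02% of those tested) and 5 lower. By a count per list added after seeing the data, of the 132 46 were interferon-stimulated genes and 8 were of the MHC class I list, and the median of the 62 interferon-stimulated genes moved from 1.75 to 2.14. The 5 lower genes were FAM172A, MTURN, NANOS1, FAM173B and TMEM170B, and in each of them RBMX replicate 3 lay between the controls and the other RBMX libraries. RBMX itself was also lowest in that library but by a smaller margin, with 1072 FPKM beside 1167 and 1328 FPKM. The summed FPKM of the interferon-stimulated genes was 4281 there, beside 12430 and 11534 in RBMX replicates 1 and 2.

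KRT17, a keratin of basal and stressed epithelium, had the smallest adjusted p of the genes not called (limma, adjusted p = 0.0882). It was at 27.6, 28.5 and 33.2 FPKM in controls and at 66.1, 77.3 and 86.8 FPKM with RBMX, a log2 difference of 1.33 ± 0.133. Here RBMX replicate 3 was the highest library. ACTBL2, an actin-like gene, was at 2.31, 2.21 and 1.79 against 4.25, 4.26 and 4.62 FPKM, again with RBMX replicate 3 on top (limma, adjusted p = 0.155). MYH3 (embryonic skeletal myosin), NPC1L1 (the intestinal cholesterol transporter) and COL11A2 (a collagen chain) differed by 1.00 ± 0.12, 1.02 ± 0.138 and 0.67 ± 0.104. RASD1 (a Ras-like GTPase), NARR and TRIM14 (an adaptor of antiviral signalling) had differences of 0.55 ± 0.0913, 0.73 ± 0.11 and 0.90 ± 0.157. The interferon-stimulated SP100, a nuclear body protein, and IFI6 completed the 12 genes ranked by p, at 1.27 ± 0.198 and 2.01 ± 0.328. Except for RBMX and RBMXL1 no gene of these 12 passed the adjusted threshold.

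The genes ranked by p on the lower side had small and even differences, and none was called. GNG2, a G protein gamma subunit, was at 7.38, 6.66 and 6.56 FPKM in controls and at 4.56, 4.40 and 4.98 FPKM with RBMX, a log2 difference of -0.48 ± 0.0880 (limma, adjusted p = 0.320). INHBE, an activin subunit, was at 2.21, 2.47 and 3.75 against 1.36, 1.22 and 0.837 FPKM, which gave the largest difference of the 12, -0.82 ± 0.167. The others were C6orf57 (an assembly factor of respiratory complex II), MPPED2, SMIM14, PELI2, TSPAN2, LYRM9, HBQ1, MKX, PKIA and NKAIN2, with differences between -0.62 and -0.34. SCHIP1, the gene 2-fold lower, was at 9.46, 6.56 and 7.78 FPKM in controls and at 3.24, 0.673 and 6.43 FPKM with RBMX. Its difference of -1.24 ± 0.486 rested on a spread between RBMX libraries wider than that of the controls. RBMX replicate 2 was far the lowest, at 0.673 FPKM, and RBMX replicates 1 and 3 stood nearer the controls. The size of this difference therefore depended on RBMX replicate 2.

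HOX cluster genes, the homeotic genes the study turned to, lay slightly lower with RBMX. Of 39 listed genes 36 were tested, 0 were called, and in 13 of them all RBMX libraries were below all controls (36.1%, against 11.7% of all genes), while 0 were apart in the other direction. The median log2 difference was -0.14 and 29 of the 36 were negative. It was between -0.13 and -0.14 under median-ratio rescaling, quantile normalization and the GC correction. HOXC10 was at 7.16, 6.86 and 8.07 FPKM in controls and at 5.32, 5.07 and 5.85 FPKM with RBMX, a log2 difference of -0.38 ± 0.0955 (limma, adjusted p = 0.333). HOXB9 was the best separated of the genes at a higher level, with 49.5, 48.2 and 45.5 against 38.3, 36.6 and 40.3 FPKM. HOXD8 had the largest negative difference, -0.46 ± 0.143, with RBMX replicate 3 at 8.97 FPKM close to the controls at 10.0 to 10.5 FPKM. HOXD9 and HOXD4 went the other way, at 0.34 and 0.29, and their groups overlapped. In total RNA the HOX median was -0.05, with 12 of the 36 apart below the controls and 1, HOXC9, apart above them. Over all 12926 genes 1980 were apart below and 1658 above in total RNA.

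Splicing regulators of the hnRNP and SR families, the protein group to which RBMX belongs, gave 0 calls among 38 genes. Their median log2 difference was 0.14, and groups were apart in 3 genes upward and 1 downward (7.89% and 2.63%, both under the share of all genes). SRSF7 was at 122.6, 122.0 and 102.6 FPKM in controls and at 141.3, 125.1 and 132.5 FPKM with RBMX, and SRSF1 and SRSF5 were the other 2 apart upward. SRSF12 was apart downward, at -0.24 ± 0.114. The positive median depended on control replicate 3. HNRNPM was at 267.4, 265.8 and 88.6 FPKM in controls and between 249.4 and 273.8 FPKM with RBMX. Without that library the median of the 38 genes was -0.07.

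Cytosolic ribosomal protein genes had a median log2 difference of -0.09 over 84 genes, with RPL39L as the only 1 apart (below the controls, -0.52 ± 0.153). The median turned positive with libraries left out, to 0.03 without control replicate 3, 0.07 without RBMX replicate 2 and 0.21 without both. Without both, 63 of the 84 genes were apart above the controls, beside 3312 of all 12926 genes. Their summed FPKM was 52450, 53570 and 71441 in controls and 60151, 43055 and 63019 with RBMX, so the highest value came from control replicate 3 and the lowest from RBMX replicate 2. Nuclear-encoded oxidative phosphorylation genes had a median of -0.18 over 78 genes (-0.11 without control replicate 3, -0.04 without RBMX replicate 2 and 0.02 without both). In this list 8 were apart below the controls and 1 above. These are 10.3% and 1.28%, both under the 11.7% and 11% of all genes. Translation factors had a median of 0.07, which was -0.05 without control replicate 3, and 8 of 60 genes apart above the controls (13.3%, near the 11% of all genes) and 2 below. Among them were EIF2B5 (a subunit of the exchange factor of eIF2) at 0.32 ± 0.125 and EIF4EBP2 (a repressor of the cap-binding protein) at -0.33 ± 0.12. Cytosolic aminoacyl-tRNA synthetases had a median of 0.16, which turned to -0.09 without control replicate 3 and -0.08 without both libraries, and WARS, which interferon induces, was the highest of them at 1.08 ± 0.371. None of these lists held a called gene.

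**Figure D3:**
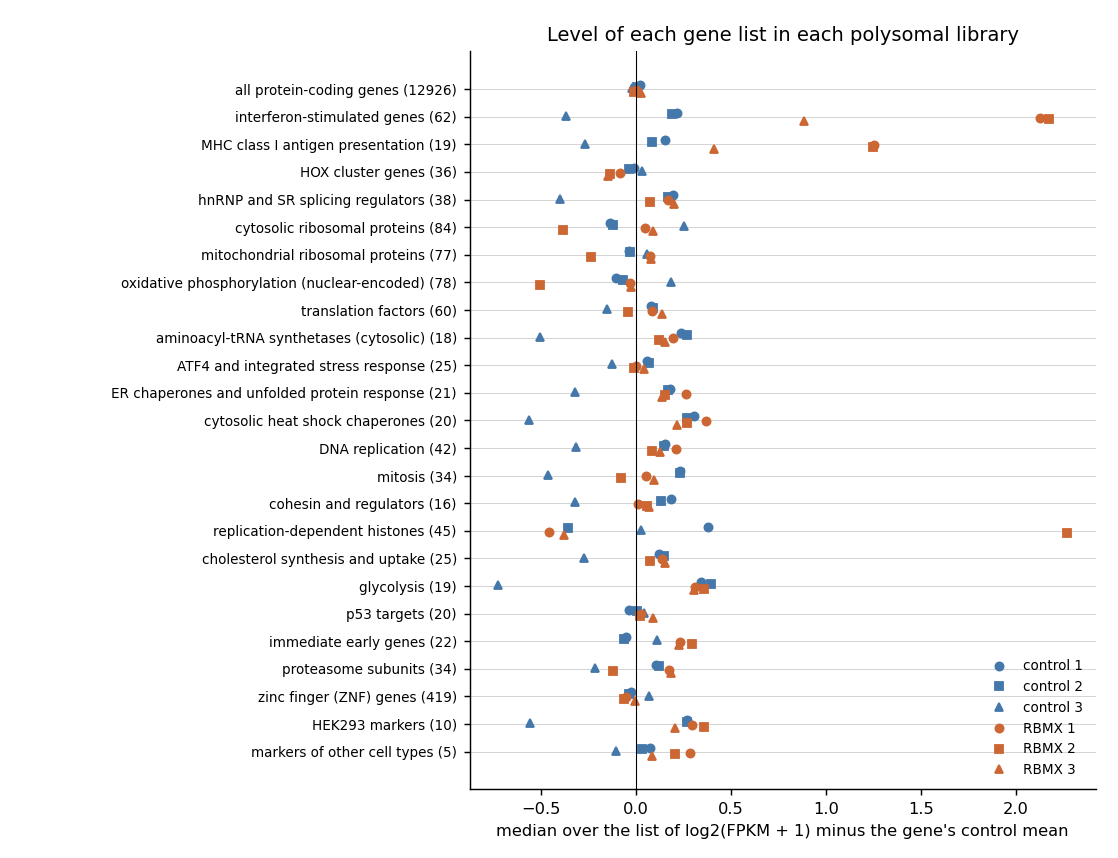
Median level of each gene list in each polysomal library relative to the mean of the 3 controls (x axis, log2(FPKM + 1) scale; blue control, orange RBMX, marker shape the replicate number; number of genes tested in brackets). The RBMX libraries stand apart by most for the interferon-stimulated list (0.88 to 2.18) and the MHC class I list. They are also apart, by less, for immediate early genes (0.23 to 0.30), HOX genes (-0.14 to -0.08) and markers of other cell types. The blue triangle of control replicate 3 lies to one side in most other lists, and RBMX replicate 2 stands alone at 2.27 in the histone list.

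Immediate early genes kept a positive median, 0.30, without control replicate 3. Of 22 genes 10 were apart upward (45.5%, against 11% of all genes) and 0 downward, with a median of 0.25. CTGF, a matricellular protein, was at 11.1, 11.1 and 10.6 FPKM in controls and at 16.7, 18.7 and 28.3 FPKM with RBMX, a log2 difference of 0.86 ± 0.183. JUNB, an AP-1 subunit, was at 6.47, 6.90 and 5.86 against 12.8, 13.5 and 8.42 FPKM. IER3 was at 34.3, 34.3 and 40.7 against 50.1, 49.0 and 50.0 FPKM, and FOS differed by 0.44 ± 0.107. Limma's adjusted p was 0.333 for CTGF, JUNB, IER3 and FOS. The p53 targets split, with 6 apart upward and 4 downward of 20 (30% and 20%, against 11% and 11.7% of all genes) and a median of 0.02. After the correction for GC content and length 1 was apart upward and 1 downward. FAS, a death receptor, was at 0.29 ± 0.101 and ZMAT3 at -0.42 ± 0.151. ATF4 targets of the integrated stress response had 2 apart upward and 4 downward of 25. These are 8% and 16%, not far from the 11% and 11.7% of all genes. Their median of 0.02 was -0.09 without control replicate 3. SLC3A2 and SLC7A11, both subunits of the cystine transporter, were at 0.39 ± 0.118 and -0.45 ± 0.155.

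Lists of growth and chaperone genes moved down without control replicate 3. Glycolysis had 19 of 19 genes positive and a median of 0.30 and 0 apart in either direction. SLC2A1, the main glucose transporter, was at 17.9, 18.3 and 7.43 FPKM in controls and at 19.1, 20.2 and 17.9 FPKM with RBMX. Without control replicate 3 the median of the list was -0.05. The same move was seen for cytosolic heat shock chaperones (0.29 to 0.01), endoplasmic reticulum chaperones (0.19 to -0.01), DNA replication (0.12 to -0.08), mitosis (0.04 to -0.21), cohesin and its regulators (0.07 to -0.11) and cholesterol synthesis (0.10 to -0.04). The HSP70 gene HSPA1A was at 56.7, 58.7 and 10.2 FPKM in controls and at 107.3, 120.9 and 40.9 FPKM with RBMX, so its groups overlapped. Among cohesin genes MAU2, a subunit of the cohesin loader, was at 0.30 ± 0.118. Proteasome subunits had a median of 0.07 over 34 genes, which was -0.02 without control replicate 3. Mitochondrial ribosomal proteins had a median of -0.04 over 77 genes, which turned to 0.08 without RBMX replicate 2 and 0.09 without both libraries. Zinc finger genes had a median of -0.04 over 419 genes, with 30 apart above and 69 below the controls. These are 7.16% and 16.5%, against 11% and 11.7% of all genes. After the correction for GC content and length the shares were 4.77% and 9.55%, against 9.69% and 14.0% of all genes.

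Control replicate 3 was the library farthest from its group. In 417 protein-coding genes it lay at least 0.5 log2 units above both other controls and in 1748 genes at least 0.5 below, compared with 64 and 184 genes for RBMX replicate 2, 21 and 177 for RBMX replicate 3 and at most 15 for any other library. Among genes with a mean of at least 10 FPKM the largest gap upward was in GH1, growth hormone, at 191.2, 192.0 and 647.0 FPKM in controls and between 152.0 and 184.0 FPKM with RBMX. The thymosin gene TMSB10, which binds actin monomers, was at 803.5, 801.6 and 1879 FPKM in controls. The tubulin genes TUBB and TUBA1A lay far below in this library, TUBB at 798.1, 825.6 and 213.2 FPKM beside 699.3 to 728.5 FPKM with RBMX. HSPA1A, the glypican GPC3 and the annexin ANXA6 were the others at the lower end. GOLGA8A, LY6G5B and C6orf141 were the others at the upper end.

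RBMX replicate 2 was set apart by replication-dependent histone genes, which encode the histones made in S phase from mRNAs that end without a poly(A) tail. HIST1H1E was at 8.66, 3.25 and 5.74 FPKM in controls and at 3.51, 78.8 and 2.98 FPKM in RBMX replicates 1 to 3. HIST1H3B, HIST1H4E, HIST1H4C and HIST1H2AL had the next largest gaps, each at least 3.69 log2 units above both other RBMX libraries. Over the 45 histone genes tested the median level relative to the controls was -0.46, 2.27 and -0.38 in RBMX replicates 1 to 3. The median difference of the list was 0.43 with all libraries and -0.37 without RBMX replicate 2. On the lower side the largest gap was in RPL27, a ribosomal protein gene. RPL27 was at 1577 FPKM beside 3401 and 3406 in the other RBMX libraries, and ATP5E (316.1), RPS29 (423.1), MRPL33 (143.7) and HSPB11 (79.9 FPKM) followed.

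**Figure D4:**
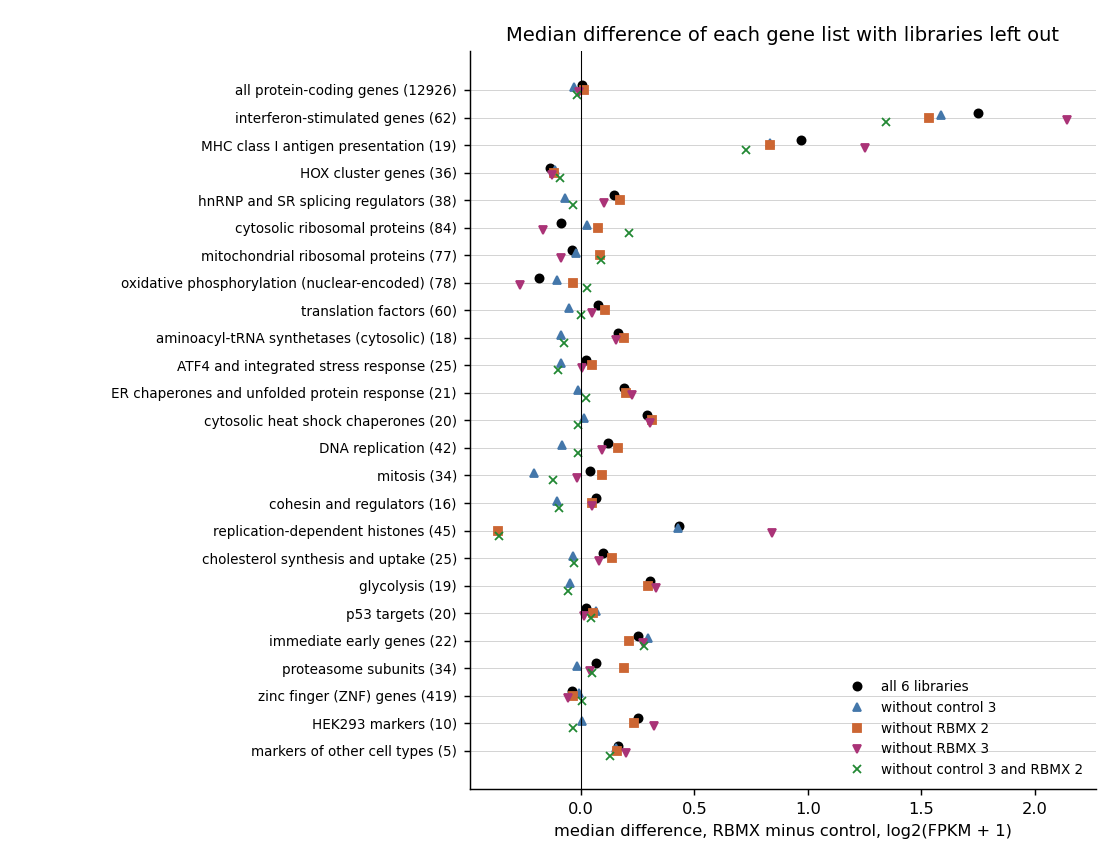
Median difference of each gene list (x axis, RBMX minus control, log2(FPKM + 1) scale) with all 6 libraries (black circle) and with libraries left out. The interferon-stimulated list lies between 1.34 and 2.14 in every case, the HOX list stays between -0.14 and -0.09, and the histone list moves from 0.43 to -0.37 without RBMX replicate 2.

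The call of RBMX and RBMXL1 did not depend on control replicate 3: without it the same 2 genes were called, and RBMX differed by 3.00. Limma called 0 genes without RBMX replicate 2, with 650 genes at an unadjusted p under 0.05, and the adjusted p of RBMX was 0.158 (6.33e-05 to 0.179 over the alternatives other than library weights) at a difference of 3.17. Without RBMX replicate 1 it also called 0 genes, with 687 at an unadjusted p under 0.05. With both control replicate 3 and RBMX replicate 2 left out the same 2 genes were called, and RBMX differed by 2.92. Small differences were less stable in sign. Of the 12926 genes 2816 changed sign without control replicate 3, 1513 without RBMX replicate 2 and 3743 without both, and 998, 144 and 1576 genes moved by over 0.25 log2 units. The number of genes with an unadjusted p under 0.05 was 1434 with all libraries, 2447 without control replicate 3 and 2605 without both. The median of the 62 interferon-stimulated genes was 1.58 without control replicate 3, 1.53 without RBMX replicate 2 and 1.34 without both.

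The direction of the small differences went with the GC content of the transcript. Genes were split by GC content into 4 bins of equal size. In the bin with the lowest GC content (median 39.4%) the groups were apart upward in 2.63% of 3226 genes and downward in 19.5%, and in the bin with the highest (median 61.3%) in 18.6% and 5.70%. The median log2 difference went from -0.09 to 0.08 over the bins. Bins by transcript length had medians between -0.03 and 0.02. After a correction of each library for GC content and length, RBMX and RBMXL1 were again the 2 genes called. The interferon-stimulated list had a median of 1.74 with 61 of 62 genes apart, the MHC class I list 0.93 with 13 of 19 and the HOX list -0.14 with 16 of 36 apart downward. The immediate early list had 7 of 22 apart upward. Over all genes 9.69% were apart upward and 14.0% downward after this correction. The part of GC content in the smaller differences was not tested beyond this.

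**Figure D5:**
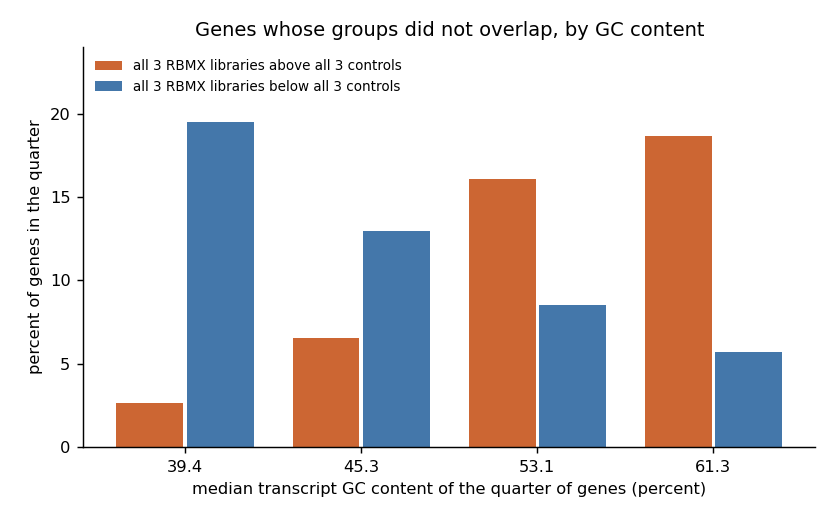
Percent of protein-coding genes (y axis) in which all RBMX libraries were above (orange) or below (blue) all controls, in 4 bins of genes by transcript GC content (x axis, median of the bin in percent). The orange bars go from 2.63% to 18.6% and the blue bars from 19.5% to 5.70%.

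The total RNA of the same gradients was set beside the polysomal values, and the 2 are not independent measurements. OAS2 differed by 3.64 in total RNA and 3.76 in polysomal RNA, IFIT1 by 2.66 and 2.55, ISG15 by 2.10 and 2.06, and KRT17 by 1.32 and 1.33. The interferon-stimulated list had a median of 1.67 in total RNA, with all 62 genes apart upward (beside 1658 of all 12926 genes), and the MHC class I list 1.03. Gaps between the fractions were larger in other genes. SCHIP1 was at -0.44 in total and -1.24 in polysomal RNA, and RPL39L at -0.09 and -0.52. For SCHIP1 the polysomal value depended on RBMX replicate 2, which was far the lowest library. For histone genes the list median was -0.37 in the total libraries beside the 0.43 given above. The polysomal median was also -0.37 once RBMX replicate 2 was left out. Other gaps were those of IFNB1, at 2.67 in total and 1.97 in polysomal RNA, and of UQCRH. UQCRH, a subunit of respiratory complex III, was at -0.07 in total and -0.58 in polysomal RNA. With control replicate 3 and RBMX replicate 2 left out, the polysomal difference was -0.22 for UQCRH, -0.28 for RPL39L and 1.75 for IFNB1. The difference between the fractions was not tested here.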

How the data were processed

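Cells were HEK293 transfected with an RBMX plasmid or the mock empty vector, and 6 polysomal libraries were analysed with their 6 total RNA libraries beside them. The authors deposited FPKM values per gene symbol, which the submitters' processing notes tie to CASAVA 1.8, TopHat2 2.0.13, Cufflinks 2.2.1, Cuffnorm and hg19, while the methods of the paper describe counts on hg38 with GENCODE v27. No coordinates are given, because the annotation used here is of another build. Deposited FPKM values were not counts, and low values shared no common ratio between libraries (13.4 to 23.7% of them at best had the same ratio to control replicate 1), so no count model was run and the depth is unknown.

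Symbols were matched to RefSeq GRCh38.p14 (24075 of 25268, of which 1704 by a synonym only), 2012 small RNA symbols were set aside and 18909 symbols were protein-coding. Values were compared as log2(FPKM + 1) with limma 3.58.1 in R 4.3.3 (lmFit, eBayes with trend), over 14105 genes with a mean of at least 0.5 FPKM, with Benjamini-Hochberg adjusted p-values called at 0.05. Fold changes on this scale understate those of low genes. Python 3.11.15 and matplotlib 3.10.9 drew the plots. For the GC and length correction, properties of transcripts were taken from GENCODE v29.

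Genes named were RBMX and RBMXL1, 12 per direction by size among genes called and then by p among genes whose groups did not overlap with a mean of at least 1 FPKM, 3 per list by p, and the genes that set control replicate 3 and RBMX replicate 2 apart. Others were chosen after their values were seen. The members and the 24 lists were chosen with earlier results of these data known, so their counts are descriptions. Alternatives were another pseudocount, other filters, rescaling, variance settings, library weights, all 12 libraries in one fit, a replicate block, a GC and length correction, and libraries left out.

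Replicate numbers recur in both groups. Deviations of same-numbered libraries from their group means correlated with -0.152, 0.0508 and 0.0987 across genes, and the numbers were not taken to pair the cultures. Single libraries stand far from their groups, so these correlations cannot decide whether the cultures were paired. Of the 62 interferon-stimulated genes replicate 3 was lowest among RBMX libraries in 62 and among controls in 55. Over all genes these shares were 28.5% and 50.0%. The labels number the 3 replicates, and the methods of the paper describe biological triplicates. Columns left unmatched to a sample numbered 0. Tested on simulated data of 14105 genes with 200 changed, the fit recovered 83% at a log2 change of 1 and 96% at 2, and 3.76% of its calls were unchanged genes. The simulated noise was independent between genes and libraries, without the shifts shared by many genes in single libraries of the data. These shares therefore do not give the recovery in the data themselves, where 108 genes were at least 2-fold higher and 2 were called.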

Additional observations from a re-analysis of the deposited data

Results flagged for a closer look

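Small RNA symbols were set aside, but 2 of them were listed at 0 in all 3 control libraries and above 0 in all 3 RBMX polysomal libraries. These were MIR181D, at 9.75, 5.06 and 8.38 FPKM, and MIR3191, at 7800, 6305 and 3741 FPKM in RBMX replicates 1 to 3. In the other direction 3 symbols were listed at 0 in all RBMX libraries: MIR6869 at 6799, 7938 and 6465 FPKM in the controls, MIR939 at 1186, 1477 and 1219 and SNORD28 at 2042, 2456 and 8123 FPKM. A value listed at 0 can be a failed estimate, so no fold is given. With small RNA symbols kept in the fit, limma called these 5 among 414 small RNA symbols tested.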

How the results depend on the processing

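With all libraries limma called 2 genes, both higher. The count was 4 with a pseudocount of 0.1 (GP1BB and EVPL added), 7 with a minimum of 0.1 FPKM and 31 with no filter, in each case all higher, and 26 of the 31 had a mean under 0.5 FPKM. All 12 libraries in one fit gave 19 genes, 16 higher and 3 lower (GNG2, MPPED2 and C6orf57). Library weights gave 5917 genes, 2446 higher and 3471 lower, but the estimate of the weights did not converge. The replicate block gave 23 genes, all higher, of which 18 were interferon-stimulated genes; the replicate numbers were not shown to pair the cultures, control replicate 1 correlated best with RBMX replicate 2 (0.199), and the cause was not tested. Leaving out single libraries gave 0 to 137 genes, 0 to 132 higher and 0 to 5 lower: 0 without RBMX replicate 1 and without RBMX replicate 2, 137 without RBMX replicate 3 and 2 without any single control. The log2 difference of RBMX lay between 3.00 and 3.38 with single libraries left out, at 3.26 (limma, adjusted p = 0.179) without RBMX replicate 1 and 3.17 (adjusted p = 0.158) without RBMX replicate 2. Of the values for single named genes other than RBMX under the alternatives, 107 passed the threshold where the reported one did not, 2 no longer passed it (both RBMXL1, without RBMX replicate 1 and without RBMX replicate 2) and 1842 stayed on their side, and none of them changed sign. List medians moved by more than the spread between libraries in 16 cases and by less in 509. The counts for named genes and for list medians include the fit with library weights, whose estimate did not converge. How many of the 107 came from that fit was not counted separately. The unknown depth means that no limit of detection can be given.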

Other observations

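Genes that HEK293 cells hardly express also had separate groups. Among the 31 genes called with no filter on low values were KRT28, a keratin of the hair follicle, at 0.0203, 0.0177 and 0 FPKM in controls and 0.325, 0.379 and 0.385 FPKM with RBMX, and HLA-DRA, an MHC class II chain, at 0.0140, 0.0122 and 0.0468 against 0.563, 0.454 and 0.452 FPKM. GSG1L was at 0.0484, 0.0937 and 0.121 against 0.621, 0.645 and 0.537 FPKM. In these 3 genes RBMX replicate 3 stood beside the other RBMX libraries. A small spread within groups favours a call, so this closeness follows in part from how the genes were chosen. GP1BB, a platelet receptor subunit, was listed at 0 in all controls and at 1.05, 2.00 and 1.02 FPKM with RBMX. These genes were chosen after their values were seen.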
